A study of Homo sapiens with 4 samples.

Results

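Cytosolic ribosomal protein genes were taken from a table of open chromatin regions as the protein-coding genes whose symbol was RPL, RPS or RPLP followed by a number and at most 1 letter, together with RPSA. They held 116 of the 58127 regions of the table, assigned to 64 genes by nearest transcription start site (TSS). Of these regions, 62 were promoter regions of 60 genes, that is, annotated as promoter or lying within 1 kb of a TSS, and 54 were distal regions of 27 genes. RPL10L, RPL38, RPL3L and RPL41 had distal regions only. The symbol rule also took RPL39L, RPL3L, RPL10L and RPS27L, which are paralogues of ribosomal proteins. A further 17 genes that fit the rule in a RefSeq gene table are not analysed here, among them RPLP0, RPL4, RPL7A, RPS2 and RPS27A.

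The regions came from ATAC-seq, in which a transposase inserts sequencing adapters into open DNA, in the cell line MCF10A, which is derived from human breast epithelium and is not tumorigenic. The labels give 2 groups of 2 libraries lettered A and B, all in MCF10A: in shG8d a short hairpin targeted the long non-coding RNA SNHG8d, and in shNC the hairpin was a control. Whether A and B were separate cultures or infections is not stated, so the spread behind each p-value is that of these libraries and may be only technical. ATAC-seq does not measure the RNA, so the knockdown itself was not checked.

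The ribosome of the cytosol is built from a large and a small subunit, and nearly every one of its proteins is encoded by a single expressed gene, with RPL naming large subunit and RPS small subunit proteins. These genes are transcribed strongly in all growing cells from short, open promoters. Their mRNAs characteristically start with a cytosine followed by an unbroken run of pyrimidines, the terminal oligopyrimidine (TOP) tract, through which mTORC1 signalling controls their translation.

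Listed start sequences of the genes on which the results turn are shown. The listed starts were not matched to the regions. RefSeq promoter windows (GRCh38.p14) were listed for 47 of the 60 genes with a promoter region. Among the genes whose promoter region differed between the library pairs, 7 had 1 listed start, RPL23 had no entry, and RPL19 and RPL32 had several starts and are not printed. Each line runs 5′ to 3′ from 80 bases before the TSS and holds 15 bases from it, and capitals mark the unbroken run of pyrimidines across the TSS. The positions on GRCh38.p14 are RPL18 chr19:48619164-48619258 (minus strand), RPL13A chr19:49487528-49487622 (plus strand), RPS29 chr14:49598696-49598790 (minus strand), RPL31 chr2:101002209-101002303 (plus strand), RPL21 chr13:27251478-27251572 (plus strand), RPL37A chr2:216498764-216498858 (plus strand) and RPL3 chr22:39319609-39319703 (minus strand). The deposited regions were made on hg19, and their starts and ends were not used here. RPS29 had promoter regions near starts of different transcripts, 180 bases before one and 277 bases before another. Which of these starts is printed was not checked, so its letters may not be those at the RPS29 region that differed.
RPL18: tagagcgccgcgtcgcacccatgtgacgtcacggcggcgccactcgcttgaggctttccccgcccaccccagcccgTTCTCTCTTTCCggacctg
RPL13A: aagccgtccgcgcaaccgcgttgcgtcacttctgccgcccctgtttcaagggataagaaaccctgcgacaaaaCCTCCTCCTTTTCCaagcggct
RPS29: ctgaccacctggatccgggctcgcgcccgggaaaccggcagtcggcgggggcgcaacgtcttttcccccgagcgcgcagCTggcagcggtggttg
RPL31: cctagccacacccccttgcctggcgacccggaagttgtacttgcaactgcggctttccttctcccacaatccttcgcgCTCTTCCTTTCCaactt
RPL21: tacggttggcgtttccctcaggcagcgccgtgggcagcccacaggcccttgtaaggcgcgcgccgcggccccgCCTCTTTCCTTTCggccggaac
RPL37A: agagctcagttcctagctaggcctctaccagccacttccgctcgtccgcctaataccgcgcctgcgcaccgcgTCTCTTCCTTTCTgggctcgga
RPL3: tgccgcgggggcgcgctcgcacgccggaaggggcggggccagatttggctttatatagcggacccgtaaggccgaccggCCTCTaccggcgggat

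The run of capitals was 14 bases long in RPL13A, 13 in RPL21 and RPL37A, 12 in RPL18 and RPL31, 5 in RPL3 and 2 in RPS29. Over the 58 listed starts of the 47 genes, 35 (60.3%) had C at the TSS followed by at least 4 pyrimidines, against 635 of 11978 listed starts (5.3%) of protein-coding genes with a promoter region. The motif CCGGAAG, a core of ETS family sites, was present on either strand between 250 bases before and 50 after the TSS in 24 of the 58 (41.4%), against 16.9% of all. ATGGCGG, a core of YY1 sites that can include the start codon, was present in 11 (19%) against 9.19%. GGGCGG, the GC box bound by Sp1, was present in 32 (55.2%) against 66.7%, CACGTG (E-box) in 3 (5.17%) against 9.39%, and TATAAA in 2 (3.45%) against 6.05%. Matches of different motifs could share bases, and a match is a description of the letters only. Because 78.3% of the member genes matched, under the 80% needed, these shares describe the listed starts, and a check of GC content was void.

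The table gives 1 normalized value for each library and region. Each value was a whole multiple of what 1 read is worth in its column, and that worth recurred in all 3 row sets of the table under exchanged group labels. The same 2 libraries are labelled shG8d in the common set (33913 regions) and shNC in the sets named shNC-specific (21459) and shG8d-specific (2755). Libraries are therefore named here by depth. The deeper pair had 8124488 and 8111839 reads in regions, and the shallower pair had 4457248 and 4344212. Higher and lower mean the deeper against the shallower pair, and neither is read as the knockdown. Depth and hairpin cannot be told apart in this contrast. Of the basal mammary markers, 10 of 11 had a promoter region (TP63 had none), with summed values of 1729 and 1577 in the deeper pair against 1213 and 1203. Of the markers of other cell types, PDGFRA (1 of 7 fibroblast genes; 15.2, 23.4, 60.4 and 50.4) and CD68 (1 of 5 blood genes; 171, 147, 132 and 98.4) had one, and none of 3 endothelial and 2 hormone receptor genes did. The part of these differences in the results below was not tested.

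Of the 60 genes, taking the promoter region of highest mean value for each, 4 were higher in the deeper pair, among them RPL18, RPL13A and RPS29, and 7 were lower (RPL3, RPL37A, RPL21, RPL32, RPL31, RPL23, RPL19). The test was limma on log2(value + 1) over all 58127 regions with Benjamini-Hochberg adjustment at 0.05. The 4 higher are 6.67% of the members, where 20.9% of the promoters of 10127 protein-coding genes were, and the 7 lower are 11.7%, where 10.4% of all were. The median log2 difference was 0.05 over the members and 0.15 over all protein-coding promoters, and the middle 50% of members lay between -0.36 and 0.31, against -0.29 and 0.59. A difference of at least 2-fold was seen in 5 members, and in 13% of all genes. The libraries of the pairs did not overlap at 20 members with the deeper pair above and at 18 with it below, where 41.8% and 26.3% of all protein-coding promoters did so. With all libraries scaled to equal totals, which moved the median of all regions by -0.35, 0 of the 60 members were higher and 15 lower, where 8.89% and 25.3% of all protein-coding promoters were, and the member median was -0.30 against -0.20 for all. The member median minus that of all promoters was -0.10 under both scalings, which move members and other genes alike. That distance rested on single libraries: without library A of the shallower pair the medians were -0.06 for members and 0.22 for all, and without library B of the shallower pair 0.09 and 0.06, which turns its sign.

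The promoters of the members fell mostly in the common set, as did those of all protein-coding genes. The promoters of 48 genes were in the common set (80% of members against 73.6% of protein-coding genes), 10 in the shNC-specific (16.7% against 24.2%) and 2 in the shG8d-specific set (3.33% against 2.15%). In the common set 3 of 48 were higher and 5 lower, where 18.3% and 11.9% of all genes there were, with medians of 0.01 for members and 0.05 for all. In the shNC-specific set 1 of 10 was higher and 0 lower, where 30.8% and 0.937% were, with medians of 0.32 and 0.53. In the shG8d-specific set 0 of 2 were higher and both lower, where 0% and 67.4% were. The regions of each specific set lean in 1 direction in all genes, so a direction there can be read only against that set's own background.

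**Figure D1:**
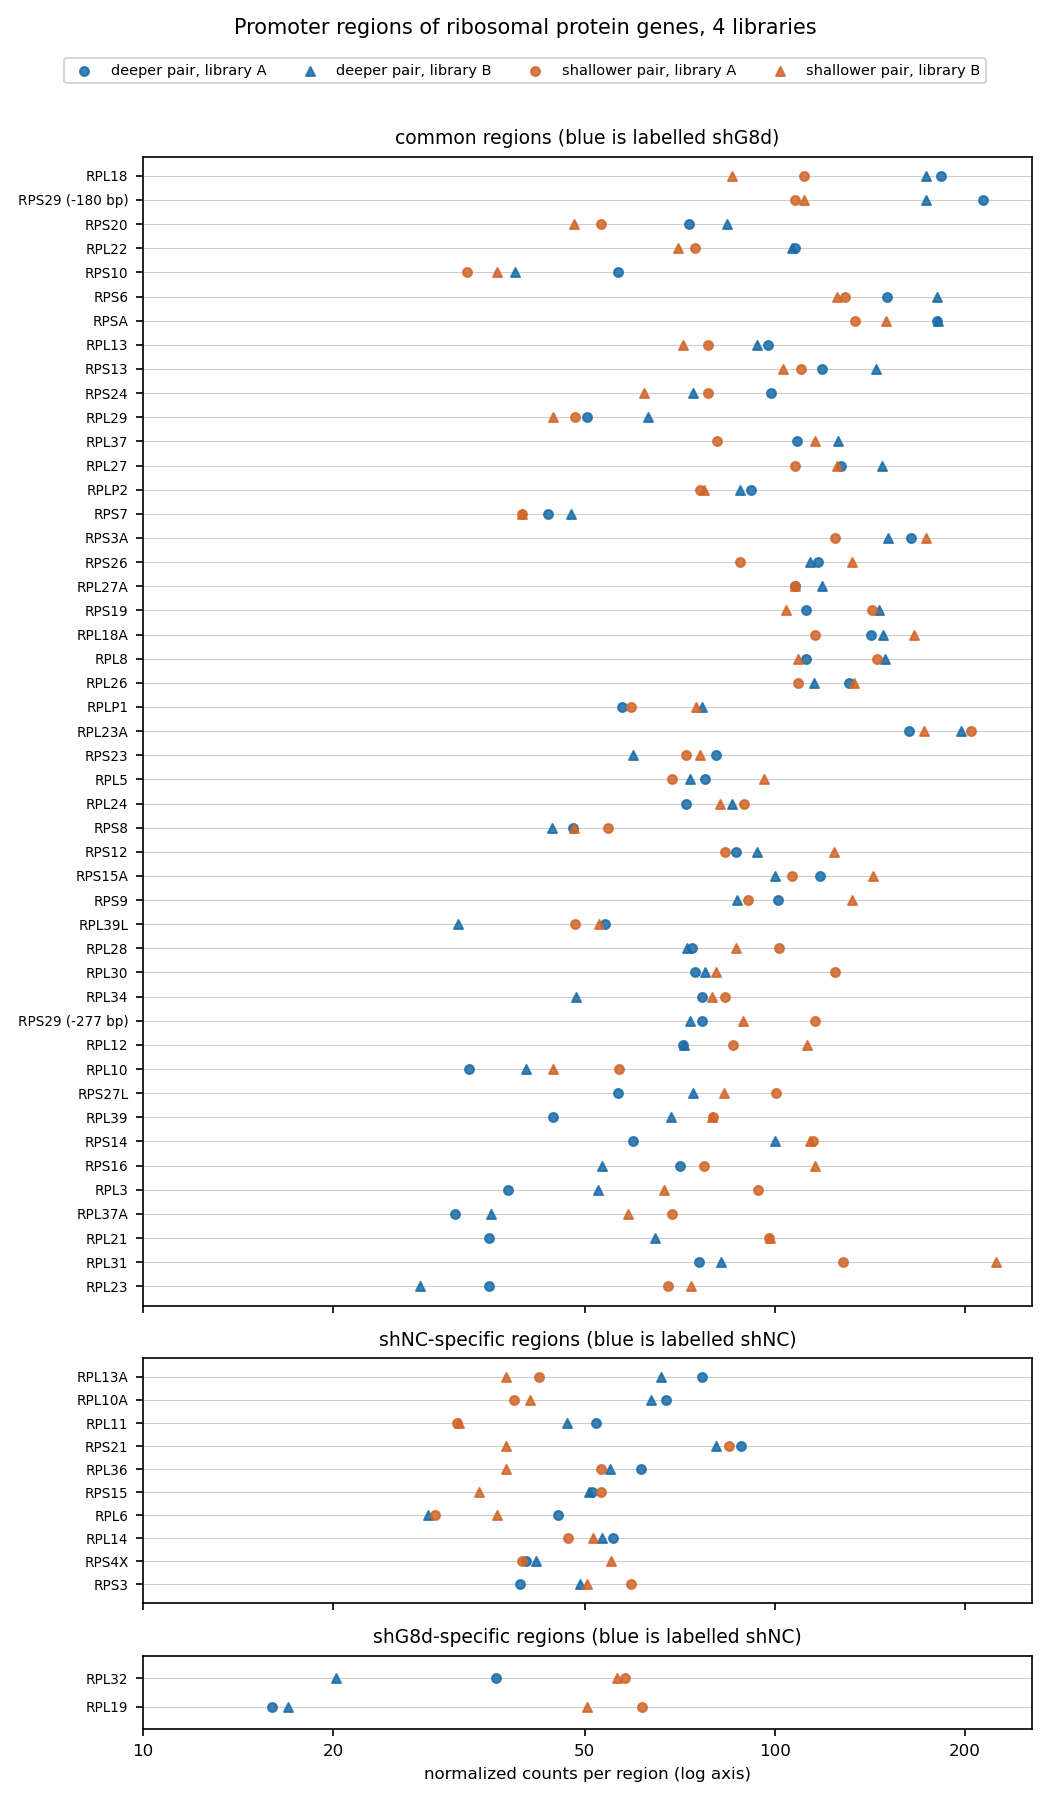
Normalized counts per region (log axis) at 59 promoter regions of ribosomal protein genes in each library, with circles for library A, triangles for library B, blue for the deeper and orange for the shallower pair, in 3 panels by row set. The pairs stand apart at the top (RPL18, RPS29) and at the bottom (RPL31, RPL23, RPL19) of the panels. In between, the pairs overlap at some regions and stand apart at others.

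The higher promoters RPL18, RPS29 and RPL13A were open in every library. RPL18, a large subunit protein gene on chromosome 19 with its region 27 bases after a TSS, had 183.5 and 173.5 normalized counts in the deeper pair (A, then B, here and below) against 111.1 and 85.5 in the shallower. On the log2 scale RPL18 was higher by 0.86 (SE 0.20, adjusted p = 0.005188). The table annotates the RPL18 region as the promoter of the neighbouring gene SPHK2, a sphingosine kinase, so the region belongs to RPL18 by distance and to SPHK2 by annotation. RPS29, a small subunit protein gene on chromosome 14, had 213.8 and 173.5 against 107.5 and 111.3 at its region 180 bases before the TSS (0.81, SE 0.19, adjusted p = 0.005975). The pairs did not overlap at either gene. RPL13A, a large subunit protein also known for its part in silencing translation after interferon gamma, had 76.6 and 66.2 against 42.3 and 37.5 at 122 bases before the TSS on chromosome 19 (0.82, SE 0.27, adjusted p = 0.03422). RPL13A had the lowest counts of these 3 and was the only one of them in a specific set. All 3 calls were lost without library A of the deeper pair (adjusted p = 0.0776, 0.159 and 0.276 for RPL18, RPS29 and RPL13A) and with equal library totals (0.0581, 0.0806 and 0.195). RPL13A was lost too without library B of either pair (0.117 deeper, 0.0502 shallower) and with equal promoter medians (0.0635).

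The 7 lower promoters were all of large subunit proteins. RPL19, on chromosome 17, had the largest difference of the member promoters. It had 15.99 and 16.95 normalized counts in the deeper pair against 61.6 and 50.4 at 275 bases before a TSS (-1.70, SE 0.34, adjusted p = 0.002107). RPL19, and RPL32 below, were in the shG8d-specific set. In that set 67.4% of all protein-coding promoters were lower and 0% higher, with a median of -1.10. The other lower promoters were in the common set. RPL31, on chromosome 2, had 75.7 and 82.3 against 128.1 and 223.8 at 57 bases after the TSS (-1.09, SE 0.24, adjusted p = 0.003435). RPL19 and RPL31 kept their calls in each of the 13 other settings tried. Library B of the shallower pair stood far above A at RPL31, and without it the difference was -0.69 (adjusted p = 0.0207). RPL23, on chromosome 17, had 35.4 and 27.4 against 67.7 and 73.8 at 33 bases after the TSS (-1.16, SE 0.29, adjusted p = 0.008145). RPL21, on chromosome 13, had 35.4 and 64.6 against 97.8 and 98.4 at 116 bases before the TSS (-1.02, SE 0.28, adjusted p = 0.01259). The shallower libraries were nearly equal at RPL21 and the deeper ones far apart, and without library A of the deeper pair the difference was -0.60 (adjusted p = 0.265). RPL32, on chromosome 3, had 36.2 and 20.2 against 58.0 and 56.2 at 30 bases before a TSS (-1.05, SE 0.33, adjusted p = 0.02799), and without library B of the deeper pair -0.64 (adjusted p = 0.306).

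RPL37A and RPL3 were nearer to the threshold. RPL37A, a zinc-binding protein of the large subunit, had 31.1 and 35.5 against 68.9 and 58.6 at 40 bases after the TSS on chromosome 2 (-0.91, SE 0.29, adjusted p = 0.02834). RPL3, whose protein reaches towards the peptidyl transferase centre, had 37.9 and 52.5 against 94.2 and 66.8 at 160 bases before the TSS on chromosome 22 (-0.82, SE 0.28, adjusted p = 0.03855). Both calls were lost without library A of either pair or library B of the deeper pair (RPL37A adjusted p = 0.180, 0.0700 and 0.0844, RPL3 0.317, 0.157 and 0.0509). The RPL3 difference was -0.57 without library A of the shallower pair. The RPL23 call was lost without library B of the deeper pair (adjusted p = 0.0777). The regions of RPL3, RPL23 and RPL21 carry promoter annotations of other transcripts, the intronic small nucleolar RNAs SNORD43 and SNORA21 and the pseudogene RPL21P28. In all, 10 of the 62 promoter regions were annotated to a transcript of another gene, and the annotated transcript of 1 more was not matched to a gene.

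**Figure D2:**
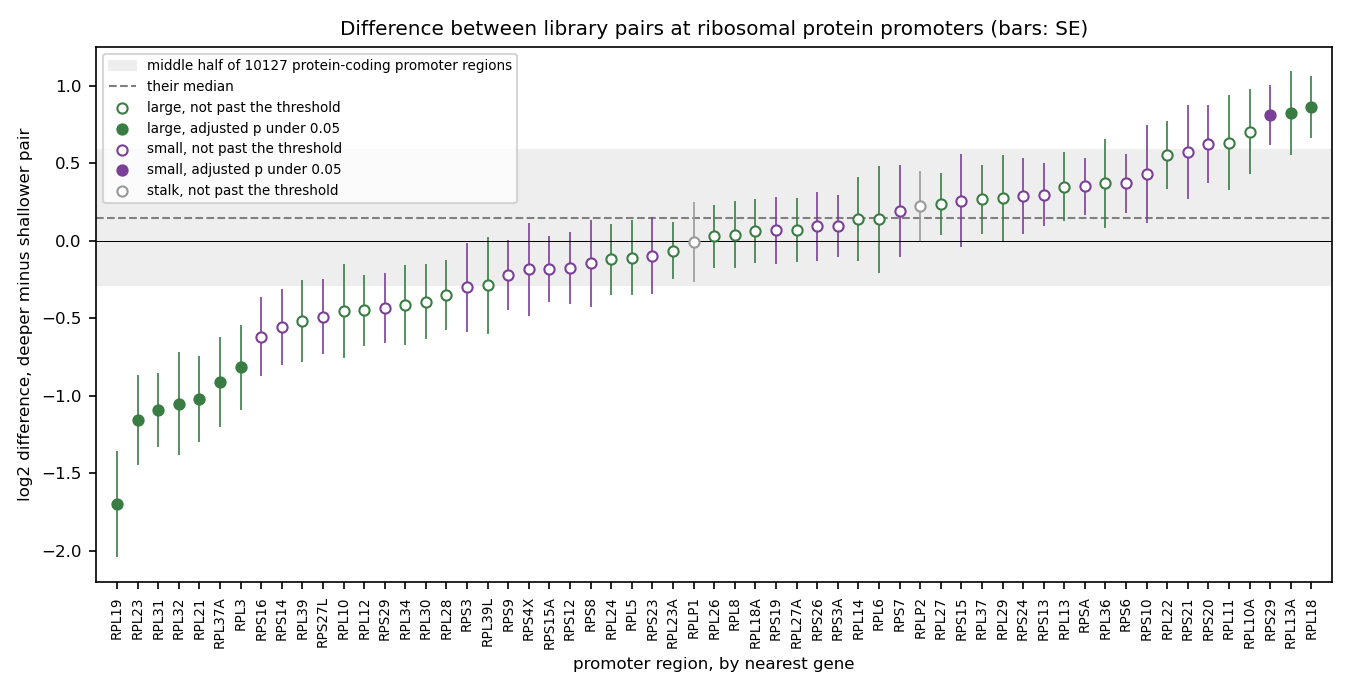
Log2 difference between the deeper and the shallower pair (vertical axis) for 59 promoter regions of ribosomal protein genes, with bars for the standard error of the limma fit, colours for the subunit, filled points for regions past the threshold, and a dashed line and grey band for the median and middle 50% of all protein-coding promoters. The 7 filled points at the left lie between -1.70 and -0.82 and the 3 at the right between 0.81 and 0.86.

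Just short of the threshold on the higher side stood RPL10A (0.70, adjusted p = 0.0678), a large subunit protein gene, with 67.3 and 63.8 against 38.7 and 41.0. RPL22 (0.56, adjusted p = 0.0715), whose protein binds RNA at the surface of the large subunit, had 107.7 and 106.5 against 74.9 and 70.3. RPS20 (0.62, adjusted p = 0.079), a small subunit protein gene, had 73.2 and 83.9 against 53.2 and 48.0. On the lower side RPS16, a protein of the small subunit's head, had 70.7 and 53.3 against 77.3 and 116.0 (-0.62, adjusted p = 0.0866), and RPS14, whose gene lies in the stretch deleted in the 5q- syndrome, had 59.8 and 100.1 against 114.8 and 113.6 (-0.56, adjusted p = 0.104). The pairs did not overlap at any of these genes, yet none passed the test.

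By subunit, 2 of 33 large subunit genes were higher and 7 lower (median -0.06), and 2 of 25 small subunit genes were higher and 0 lower (median 0.10). At an unadjusted limma p under 0.05, 11 large and 5 small subunit genes differed in either direction, where 44.9% of all protein-coding promoters did. The adjusted calls are to be read against 20.9% higher, 10.4% lower and a median of 0.15 over all. With equal library totals the counts were 0 and 12 for the large and 0 and 3 for the small subunit, with medians of -0.42 and -0.25, against 8.89%, 25.3% and -0.20 over all under that scaling. The difference between the subunits was not tested. RPLP1 and RPLP2 encode the acidic stalk proteins that recruit elongation factors. RPLP1 had 57.2 and 76.7 against 59.2 and 74.98 (-0.01, adjusted p = 0.985). RPLP2 had 91.7 and 88.0 against 76.1 and 77.3 (0.22, adjusted p = 0.496). At RPLP1 the letters differed more than the pairs.

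RPS6, the small subunit protein phosphorylated by S6 kinase downstream of mTORC1, had 150.6 and 180.8 against 129.3 and 125.4 (0.37, adjusted p = 0.166). RPSA, which is also described as a laminin receptor, had 180.9 and 181.6 against 134.1 and 150 (0.35, adjusted p = 0.172). Neither passed the test, though the pairs did not overlap. RPL5 and RPL11 form the 5S particle that binds MDM2 when ribosome assembly fails. RPL5 had 77.4 and 73.4 against 68.9 and 96.1 (-0.11, adjusted p = 0.781), and RPL11 had 52.2 and 46.8 against 31.4 and 31.6 (0.63, adjusted p = 0.141). RPS19, the gene most often mutated in Diamond-Blackfan anaemia, had 111.9 and 146.1 against 142.6 and 104.3 (0.07, adjusted p = 0.849), with fully mixed libraries. Of the 11 genes in a partial list for that anaemia, 9 had a promoter region. Of these 9, 0 were higher or lower in the limma test (median 0.19). At an unadjusted limma p under 0.05, 0 of the 9 differed, where 44.9% of all protein-coding promoters did. Members outside this partial list are not covered by these counts. Of 20 hosts of small nucleolar RNAs, 16 had a promoter region: 2 were higher and 3 lower (median -0.13), against 2 and 4 of the 44 other members (median 0.07). Over all protein-coding promoters 20.9% were higher and 10.4% lower, with a median of 0.15, which is the background for the anaemia genes and the hosts.

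RPS29 had a pair of promoter regions. The second RPS29 region, 277 bases before the start of another transcript, had 76.6 and 73.4 against 116.0 and 89.0 (-0.43, adjusted p = 0.174), so the 2 regions of this gene differed in sign. The members ending in L that had a promoter region, RPL39L (-0.29, adjusted p = 0.538) and RPS27L (-0.49, adjusted p = 0.148), did not pass the test.

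The level of openness varied between members. The mean normalized count over the 4 libraries ran from 34.8 to 184.1 with a median of 78.7, against a median of 89.1 for all protein-coding promoters. These are counts per region and region lengths were not used, so an order between genes is of counts and not of density. Among the highest were RPL23A (184.1), RPSA (162), RPS3A (153) and RPS29 (152), and the lowest RPL6 (34.8), RPL19 (36.2), RPL11 (40.5), RPS10 (41.0) and RPL32 (42.7). RPL19 and RPL32, at the low end, were the shG8d-specific promoters, and RPL6 and RPL11 were shNC-specific. Against all protein-coding promoters, 8 members lay above the 75th percentile and 19 below the 25th. The median difference between A and B was 0.21 log2 units in the deeper pair and 0.23 in the other, and between the pairs 0.35, where all protein-coding promoters had 0.19, 0.30 and 0.45. Reads behind the values were 19 to 254 and 21 to 255 per member promoter in the deeper libraries and 24 to 169 and 27 to 191 in the shallower ones. The median standard error of a member's difference was 0.24.

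The authors' deposited table gives unadjusted p-values of its own. Of the 60 member promoters, 11 had p under 0.05 in the authors' deposited table, where 31.4% of protein-coding promoters were below that value. All 11 were the genes called here. Those p-values come from the same libraries, so the overlap is no independent check. It also sets an unadjusted p beside an adjusted one.

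Other genes of translation moved in both directions. Of 61 mitochondrial ribosomal protein genes, 9 were higher and 7 lower (median -0.04), among them MRPL38 (1.54, adjusted p = 0.00039) and MRPS28 (-1.05, adjusted p = 0.00118). Of 54 genes with symbols of initiation and elongation factors, which include enzymes that modify them, 7 were higher and 9 lower (median 0.13). EIF2B2, a subunit of the exchange factor for eIF2, had a difference of 1.16 (adjusted p = 0.000734), and EIF4A2, an RNA helicase of initiation, one of -0.90 (adjusted p = 0.0326). Of 15 other genes whose mRNAs start with a TOP tract, 12 had a promoter region, with 2 higher and 3 lower (median 0.04); part of that list is also among the factors. RACK1, a scaffold protein of the small subunit, had 69.8 and 84.7 against 172.8 and 175.7 (-1.17, adjusted p = 0.000729), and PABPC1, the poly(A)-binding protein, 265.1 and 255.0 against 128.1 and 80.8 (1.34, adjusted p = 0.000294). Of 21 ribosome assembly genes, 17 had a promoter region, with 2 higher and 3 lower (median -0.02). Examples are DKC1, which pseudouridylates ribosomal RNA (1.76, adjusted p = 0.000642), and RIOK2, a kinase of small subunit maturation (-0.87, adjusted p = 0.0103). Of 11 paralogues and fusion genes, 7 had a promoter region, 0 were higher and 1 lower, RPL7L1 (-0.76, adjusted p = 0.0149), with a median of -0.29. RPL39L and RPS27L of that list are also counted among the members above. For each of these lists the same background of 20.9% higher and 10.4% lower and a median of 0.15 applies, and the lists were not tested as sets.

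**Figure D3:**
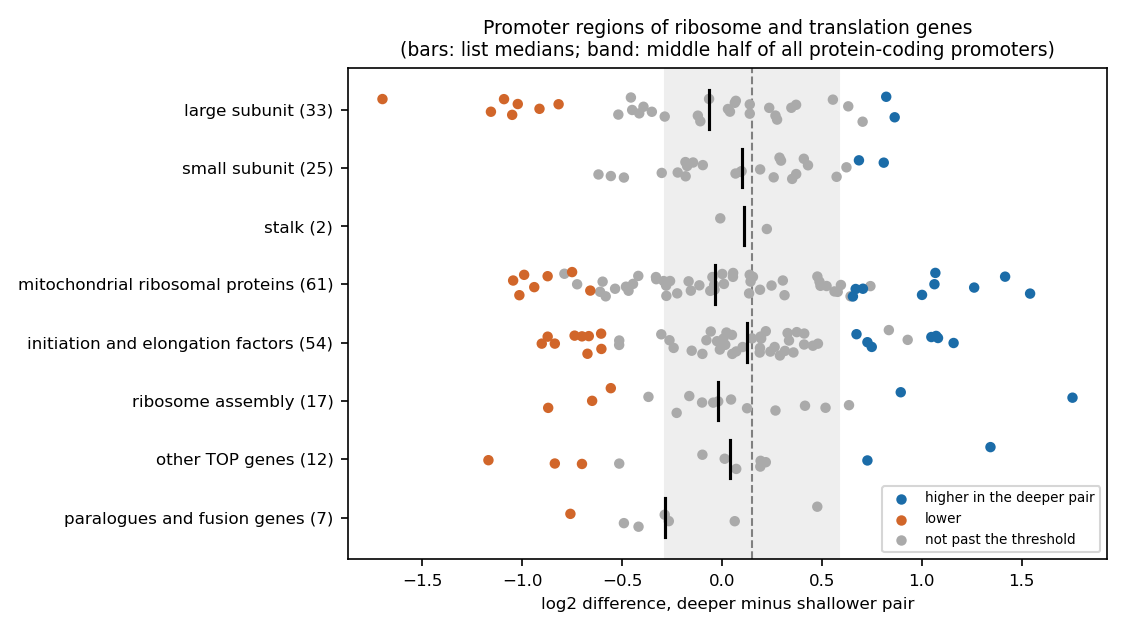
Log2 differences between the deeper and the shallower pair at promoter regions of ribosomal protein subunits and other translation gene lists, 1 point per gene, coloured by the call, with a black bar for each list's median and a dashed line and grey band for the median and middle 50% of all protein-coding promoters. The medians of the large (-0.06) and small subunit (0.10) and of the other lists drawn lie below the 0.15 of all.

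Of the 54 distal regions nearest to ribosomal protein genes, 12 were higher and 5 lower, at 13 genes. In position, 37 were intergenic and 17 intronic, with a median distance of 11946 bases to the TSS and 9 more than 100 kb away. They belong to a ribosomal protein gene only as the nearest TSS, and several lie in other genes. In the common set 5 of 22 were higher and 2 lower, where 8.62% and 15.8% of distal regions of protein-coding genes were, and the median was 0.42 against -0.17. In the shNC-specific set 7 of 29 were higher and 0 lower, where 10.6% and 0.904% were, with a median of 0.30 against 0.20. In the shG8d-specific set 0 of 3 were higher and all 3 lower, where 0% and 68.9% were. With equal library totals 0 were higher and 4 lower in the common set, and 3 and 1 in the shNC-specific set, where 3.17% and 38.4%, and 4.23% and 6.58%, of the distal regions of protein-coding genes were. The medians were then 0.07 against -0.52 in the common set and -0.05 against -0.14 in the shNC-specific set.

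RPS21, a small subunit protein gene on chromosome 20, had the largest positive distal differences, both in intergenic regions before its start. These RPS21 regions and the RPL39L region below were in the shNC-specific set, where 10.6% of distal regions were higher and 0.904% lower. The region at 4170 bases had 101.0 and 93.6 against 30.2 and 38.7 (1.48, SE 0.27, adjusted p = 0.000889), and the region at 8731 bases had 127.9 and 163.0 against 61.6 and 46.9 (1.41, SE 0.23, adjusted p = 0.000478). Both kept their calls in all 13 other settings. The RPS21 promoter itself had 88.4 and 80.7 against 84.6 and 37.5 (0.57, adjusted p = 0.177), with overlapping pairs. RPL39L, the testis-enriched paralogue of RPL39, had an intronic region at 2366 bases after its TSS with 64.8 and 43.6 against 20.5 and 19.9 (1.35, adjusted p = 0.00857). It lost its call without library A of the deeper pair (adjusted p = 0.233).

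3 genes had both a called promoter and a called distal region. RPL31 and RPL37A were lower at the promoter and higher at a region 45403 and 41378 bases after it: 111.1 and 108.1 against 59.2 and 73.8 for RPL31 (0.72, adjusted p = 0.0273), and 129.6 and 134.0 against 90.6 and 74.98 for RPL37A (0.67, adjusted p = 0.0271). The RPL31 region lies in an intron of TBC1D8. For RPL31 and RPL37A, the promoter and this distal region were in the common set. RPS29 was higher at its promoter, higher at 345908 bases after it (67.3 and 50.8 against 29.0 and 26.9, 1.04, adjusted p = 0.0206) and lower at 161306 bases (13.5 and 1.61 against 44.7 and 43.4, -2.87, adjusted p = 0.002358). The RPS29 promoter and the region at 345908 bases were in the common set. The region at 161306 bases was in the shG8d-specific set, where 68.9% of distal regions were lower and 0% higher. The 1.61 of that last region stands for 2 reads, under the floor of 3 reads (2.42 normalized counts) in library B of the deeper pair, and without that library the difference was -1.64 (adjusted p = 0.0280). RPL11 had one region higher (8247 bases after the TSS, 1.16, adjusted p = 0.0427) and one lower (18227 bases before it, -0.94, adjusted p = 0.00824). The higher region was in the shNC-specific set, where 10.6% of distal regions were higher and 0.904% lower. The lower region was in the common set, where 8.62% were higher and 15.8% lower. Their signs are therefore read against different backgrounds. The 2 RPL11 regions bracket a promoter that did not pass the test.

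The other higher distal regions were 2 of RPLP1 (0.92 and 0.75, adjusted p = 0.0124 and 0.0372) and 1 each of RPS15 (0.77, adjusted p = 0.0317), RPL38 (0.73, adjusted p = 0.0334) and RPS16 (0.50, adjusted p = 0.0463). Those of RPLP1 and RPS15 were in the shNC-specific set, those of RPL38 and RPS16 in the common set. The other lower ones were of RPL27 (-1.51, adjusted p = 0.00433, in an intron of RUNDC1), RPS23 (-0.97, adjusted p = 0.0288, in an intron of ATG10) and RPL27A (-0.85, adjusted p = 0.0110). The RPL27 and RPS23 regions were in the shG8d-specific set, where 68.9% of distal regions of protein-coding genes were lower and 0% higher. The RPL27A region was in the common set, where 15.8% were lower. RPL38 encodes a large subunit protein known for its part in the translation of Hox mRNAs, and its 4 distal regions are its only ones in the table. Apart from the RPS21 regions and the lower RPS29 region, each distal call was lost in at least 1 of the 13 settings. Without either library of the deeper pair fewer of the 54 regions were called, and fewer of all regions too. Without its library A the distal medians were 0.39 against -0.16 for all protein-coding genes in the common set. In the shNC-specific set they were 0.338 against 0.195. Without its library B they were 0.35 against -0.16 and 0.26 against 0.23.

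**Figure D4:**
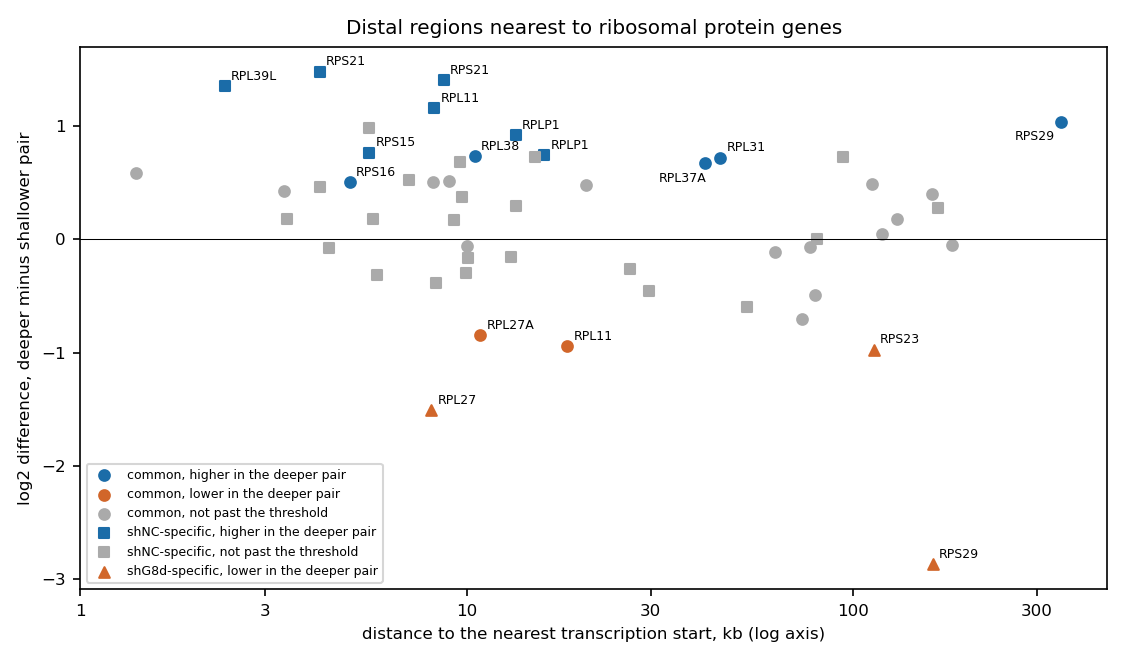
Log2 difference between the deeper and the shallower pair (vertical axis) of the 54 distal regions against the distance to the nearest TSS in kb (log axis), with shapes for the row set and colours for the call. The 12 higher regions lie at 0.50 to 1.48 and the 5 lower ones at -2.87 to -0.85, at distances from 2366 to 345908 bases.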

How the data were processed

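Chromatin accessibility was profiled by ATAC-seq in 4 MCF10A libraries. Per the submitters' processing notes the build was hg19 and base calls came from CASAVA 1.4. For the aligner, peak caller and counter, names were not given in the sources used here. Per the file headers, the deposited table holds a log10 normalized value per library, a log2 fold change and an unadjusted p-value per region. The deposited log10 values were raised back, and dividing by the step of each column gave whole reads for 100% of values within 0.05 reads. Values of at least 10 in 2 libraries were required, which removed 0 regions. The contrast was fitted with limma 3.58.1 in R 4.3.3 on log2(value + 1), with a mean-variance trend, and p-values were adjusted by Benjamini-Hochberg over all regions at 0.05. Reported differences are on that log2 scale, which understates changes of low regions. The fit was tested on simulated data. Members, gene lists and tests were chosen with earlier results of these data known. By rule the text names every member past the threshold, the 5 largest differences in each direction, the 5 highest and lowest levels, and RPS6, RPL5, RPL11, RPS19, RPSA and the stalk genes. Some other members, among them those near the threshold, are named as well. Some member results are not reported here and not drawn by name, but stay in the counts. Names and promoter sequences came from RefSeq (GRCh38.p14).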

Additional observations from a re-analysis of the deposited data

How the results depend on the processing

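Pseudocounts of 0.5 and 10, no filter and a filter at 30 normalized counts left the member promoters at 4 higher and 7 lower, and so did voom weights on recovered reads, an alternative chosen after seeing the data. With equal library totals 0 were higher and 15 lower, where 8.89% and 25.3% of all protein-coding promoters were, and the member median was -0.299. Under that scaling 11 distal regions were called (3 higher, 8 lower). Of all distal regions of protein-coding genes, 3.17% were then higher and 38.4% lower in the common set. In the shNC-specific set 4.23% and 6.58% were. With equal promoter medians the member median was -0.024 and 11 distal regions were called (5 higher, 6 lower). Of all distal regions of protein-coding genes, 6.39% were then higher and 17.5% lower in the common set. In the shNC-specific set 7.66% and 1.08% were. The member median was 0.073 with TMM scaling, 0.035 over all promoter regions, 0.065 over regions annotated as promoter only and 0.011 in the common set alone. Leaving out 1 library at a time gave 4629 to 19153 called regions of all (13697 with all libraries), 0 to 7 higher and 4 to 8 lower member promoters, a member median of -0.058 to 0.091 and 5 to 21 called distal regions, where the lone library of a pair is assumed to vary like the other pair. The letters A and B were also fitted as a replicate block, which gave 15308 called regions, 4 higher and 7 lower member promoters and 19 distal regions, and changed no promoter call. Libraries of the same letter did not deviate together (correlation -0.00393 over all regions). Whether the letters pair the libraries is not stated, and that correlation cannot settle it. No direction of a called member reversed in any setting. The cause of these changes was not tested, beyond the fewer libraries of the fits that leave one out. Apart from voom, count-based tests on recovered reads were not run. With 2 libraries a group and 19 to 255 reads per member promoter, depth limits which small differences can be seen.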
